A study of Mus musculus with 12 samples.

Results

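The genes described here are the receptors through which macrophages sense chemokines and bacterial formyl peptides: Cxcr4, Ccr1, Ccr2, Cx3cr1, Ccrl2, Fpr1 and Fpr2. They were chosen by name, as 7 receptor genes, and 6 of them, all but Fpr1, had a probeset named in the annotation used here, among 18193 named genes on the array. The expression of Fpr1 was not analysed here. The 6 measured genes had 11 probesets, and each gene was read from the probeset with the highest mean over the arrays other than the array labelled unstimulated double knockout; the other probesets are described where they differed.

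Expression was measured in peritoneal macrophages of mice injected with thioglycollate, an irritant that draws leukocytes into the peritoneal cavity. Wild-type cells, cells of IRAK2 knockout mice (IRAK-2-/-) and cells of mice lacking both IRAK1 and IRAK2, called double knockout here, were each left unstimulated or given MALP-2 at 100 ng/ml for 2, 4 or 8 h. MALP-2 is a mycoplasma lipopeptide sensed by Toll-like receptors 2 and 6, and IRAK1 and IRAK2 are kinases that act downstream of these receptors. There were 12 arrays, 1 for each of the 3 genotypes and 4 times, so no group has a replicate; strain, age, the number of mice behind an array and any pooling are not stated in the labels.

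Values are on a log2 scale, where 1 unit is 2-fold, and 3.83, the median of all values of 11 arrays, is called the floor; values near it carry little signal. The array labelled unstimulated double knockout stood apart, as was known from earlier results of these data. Its correlation with the other arrays was 0.762 to 0.803, against at least 0.954 among the other 11. Its macrophage markers averaged 7.93 against 9.76 to 10.31. The fits therefore leave it out, except the alternative named 12 arrays, and double-knockout responses are given against this array and against the mean of the other 2 unstimulated arrays, called the substitute baseline. The Irak2 probeset read 5.77 to 6.69 in wild type, 4.65 to 5.63 in IRAK2 knockout and 4.61 to 5.19 in stimulated double-knockout arrays. The 4 Irak1 probesets differed by -1.22 to -0.24 between stimulated double-knockout and wild-type arrays, and the one with the highest mean read 8.11 to 8.31 against 8.46 to 8.59. On the array labelled unstimulated double knockout, 2 of the 4 went against the label, reading 10.84 and 7.46 against wild-type ranges of 8.46 to 8.59 and 5.24 to 5.40. The other 2 lay below wild type, at 3.94 and 7.12 against 5.52 to 5.94 and 7.99 to 8.21, and Irak2 read 3.53. Every direction drawn from that array rests on its label, and the first double-knockout value in each series below comes from it. No source read here places these probes inside or outside the deleted stretch, so the Irak1 readings check the label only in part.

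Chemokine receptors are seven-pass membrane proteins that couple mainly to Gi proteins and steer leukocytes along gradients of chemokines. CXCR4 binds CXCL12 and holds cells in bone marrow and tissue, CCR2 binds CCL2 and CCL7 and brings monocytes into inflamed sites, CCR1 binds CCL3, CCL5 and related chemokines, and CX3CR1 binds fractalkine. CCRL2 is an atypical receptor that binds chemerin without classical G protein signalling, and the formyl peptide receptors FPR1 and FPR2 respond to bacterial peptides and to host ligands such as annexin A1. In the mouse genome Fpr1 and Fpr2 are neighbours on chromosome 17, while Ccr1 and Ccr2 lie on chromosome 9 with Ccr1l1 and Ccr3 between them. Those neighbouring genes did not reach the floor on any of the 12 arrays.

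The promoters of Cxcr4, Ccrl2 and Fpr2 are shown because these genes had the largest fall in wild type, a rise that peaked early and the largest rise. Each line holds the 250 bases before the annotated start, 5′ to 3′ on the gene's strand, from RefSeq on GRCm38.p6: chr1:128592300-128592549 on the minus strand, chr9:111057519-111057768 on the minus strand and chr17:17887574-17887823 on the plus strand. Capitals mark matches to 5 motifs searched on both strands: the NF-kB motif, the PU.1 core GAGGAA, the AP-1 motif written as TGANTCA, the GC box core GGGCGG and the TATA box core TATAAA. The motifs were chosen with these sequences in view.
Cxcr4: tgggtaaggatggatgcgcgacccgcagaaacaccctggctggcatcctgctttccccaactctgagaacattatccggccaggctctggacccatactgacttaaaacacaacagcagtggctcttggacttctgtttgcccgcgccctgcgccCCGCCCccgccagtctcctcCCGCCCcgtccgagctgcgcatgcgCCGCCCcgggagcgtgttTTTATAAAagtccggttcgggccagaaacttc
Ccrl2: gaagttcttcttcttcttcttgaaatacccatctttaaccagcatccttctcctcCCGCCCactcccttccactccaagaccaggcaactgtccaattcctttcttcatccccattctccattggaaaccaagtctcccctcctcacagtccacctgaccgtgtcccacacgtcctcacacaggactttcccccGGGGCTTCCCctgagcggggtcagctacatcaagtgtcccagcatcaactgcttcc
Fpr2: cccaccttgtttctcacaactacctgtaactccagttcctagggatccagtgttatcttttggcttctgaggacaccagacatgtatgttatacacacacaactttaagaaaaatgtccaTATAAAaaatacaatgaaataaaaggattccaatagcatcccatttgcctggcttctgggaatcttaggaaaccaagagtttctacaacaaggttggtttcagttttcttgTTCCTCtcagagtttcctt
The Cxcr4 window is rich in G and C, at 61.2% against a median of 52.4% over 32851 promoters. It holds GGGCGG, read on the other strand, starting 95, 75 and 50 bases before the start. TATAAA stands 30 bases before the start, overlapping a match on the other strand at 32. The Ccrl2 window, 1 of 3 annotated for this gene, has an NF-kB match at 56 bases and a GGGCGG match at 195. The other windows annotated for Ccrl2 held no match to any of the 5 motifs. Of the 7 receptors, Ccr1 and Ccrl2 had the NF-kB motif, and Ccr1 moved little after MALP-2 in wild type and IRAK2 knockout. The Fpr2 window is poor in G and C, at 38.8%, with GAGGAA read on the other strand at 19 bases and TATAAA at 130. Of all promoters, 7.25% held the NF-kB motif, 23.3% GAGGAA, 6.75% TGANTCA, 32.7% GGGCGG and 12.4% TATAAA in the same 250 bases. TGANTCA was found in none of the 7 receptor promoters. These matches describe letters only, and factor binding was not measured.

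**Figure D1:**
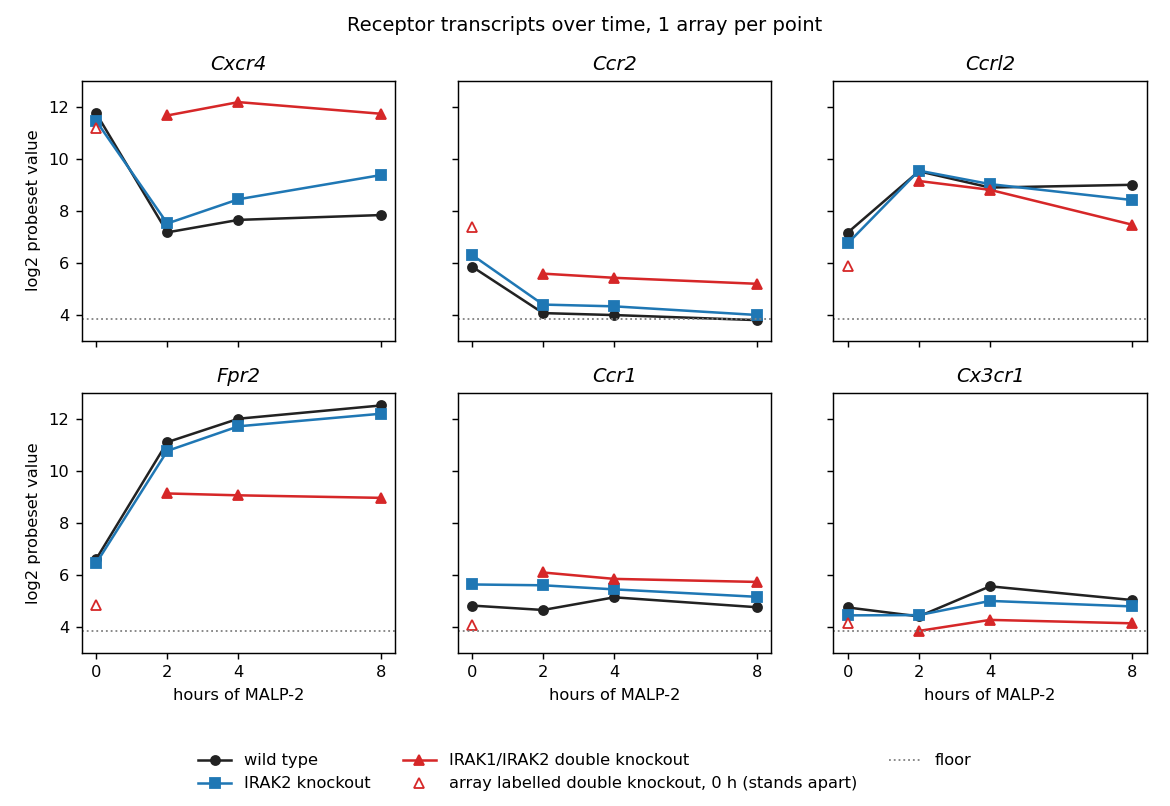
Log2 probeset value (vertical axis) against hours of MALP-2 (horizontal axis) for the 6 receptors, 1 array per point, with the floor dotted and the array labelled unstimulated double knockout as an open triangle. Cxcr4 stayed at 11.66 to 12.17 in stimulated double-knockout arrays and lay at 7.17 to 7.83 in wild type, while Fpr2 lay at 8.96 to 9.13 and 11.10 to 12.51.

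Cxcr4 was the receptor that fell furthest in wild type, and in IRAK2 knockout at 2 and 4 h; at 8 h in IRAK2 knockout it fell by 2.08 and Ccr2 fell by 2.31. In wild-type cells it read 11.74 at 0 h, then 7.17, 7.65 and 7.83 at 2, 4 and 8 h. In IRAK2 knockout cells it read 11.45, then 7.51, 8.44 and 9.37, and in double-knockout cells 11.19, then 11.66, 12.17 and 11.73. All stimulated wild-type and IRAK2 knockout arrays lay below every unstimulated array, whereas no stimulated double-knockout array did. In bulk RNA, fewer cells of a type and less RNA per cell cannot be told apart.

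Ccr2 also fell, from a lower level on its probeset and to about the floor. It read 5.85, 4.06, 3.99 and 3.79 in wild type, and 6.30, 4.39, 4.32 and 3.99 in IRAK2 knockout. In double knockout it read 7.39, 5.58, 5.42 and 5.19. The 3 genotypes kept the same order at every time, with double knockout highest. Stimulated wild-type values lie at the floor, so the size of the fall is a lower limit.

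Fpr2 was the most strongly induced of the receptors. It rose from 6.60 to 11.10, 12.002 and 12.51 in wild type and from 6.44 to 10.76, 11.71 and 12.19 in IRAK2 knockout. In double knockout it read 4.85, then 9.13, 9.06 and 8.96. Every stimulated array of every genotype lay above every unstimulated one, but the double-knockout arrays did not overlap the others and did not climb after 2 h. The share of all genes with such a separation was not counted.

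Ccrl2, the atypical chemerin receptor, was induced with an early peak. It read 7.16, 9.51, 8.89 and 8.99 in wild type and 6.74, 9.54, 9.02 and 8.41 in IRAK2 knockout. In double knockout it read 5.88, 9.14, 8.80 and 7.46. The stimulated ranges of the 3 genotypes overlapped, and the double-knockout 8 h array was the lowest of the 9 stimulated ones.

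Ccr1 and Cx3cr1 lay low on their probesets and moved little after MALP-2 in wild type and IRAK2 knockout. Ccr1 read 4.82, 4.65, 5.14 and 4.76 in wild type, 5.63, 5.60, 5.44 and 5.16 in IRAK2 knockout and 4.06, 6.09, 5.84 and 5.73 in double knockout. Cx3cr1 read 4.75, 4.40, 5.56 and 5.03, then 4.44, 4.45, 4.997 and 4.78, and then 4.14, 3.84, 4.27 and 4.14, in the same order of genotypes. Stimulated double-knockout arrays were the highest for Ccr1 and the lowest for Cx3cr1, without overlap with the other genotypes. How many of all genes separated in this way was not counted, so this sets neither receptor apart.

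The response to MALP-2 was tested over wild type and IRAK2 knockout together, as the mean of 2, 4 and 8 h minus 0 h, in a limma fit with genotype as a term on 8 arrays. Such a p-value weighs the response against how alike it was in the 2 genotypes. It does not weigh it against the spread between times or between mice. Of the 6 receptors, 2 rose and 2 fell at an adjusted p under 0.05, where 47% of 10799 genes tested were called, 18.9% higher and 28.2% lower. With at least 2-fold asked as well, 4.35% of genes were called higher and 4.8% lower, and the same 4 receptors passed. Cxcr4 fell by 3.60 (SE 0.29, 12.2-fold, adjusted p = 4.6e-05), and Ccr2, the CCL2 receptor, fell by 1.99 (SE 0.09, 3.96-fold, adjusted p = 3.39e-06). Fpr2 rose by 5.19 (SE 0.09, 36.5-fold, adjusted p = 8.26e-08), and Ccrl2 rose by 2.11 (SE 0.15, 4.32-fold, adjusted p = 2.58e-05). Each of these 4 calls held in every alternative run for it.

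The remaining receptors were not called. The difference was -0.10 for Ccr1 (95% interval -0.42 to 0.22, adjusted p = 0.582) and 0.28 for Cx3cr1 (95% interval -6e-04 to 0.55, adjusted p = 0.0939). Without the 2 h arrays Cx3cr1, the fractalkine receptor, passed at 0.50 (adjusted p = 0.00854).

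At single times in wild type, the same 2 genes, Ccrl2 and Fpr2, were at least 2-fold above 0 h and the same 2, Cxcr4 and Ccr2, at least 2-fold below it, at 2, 4 and 8 h. Over all measured genes 5.41%, 5.34% and 5.06% were above by that much and 7.67%, 6.93% and 5.65% below. IRAK2 knockout cells gave the same 4 genes at every time, against 4.65%, 4.26% and 3.21% of genes above and 5.38%, 5% and 2.95% below. These single-array counts carry no test.

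**Figure D2:**
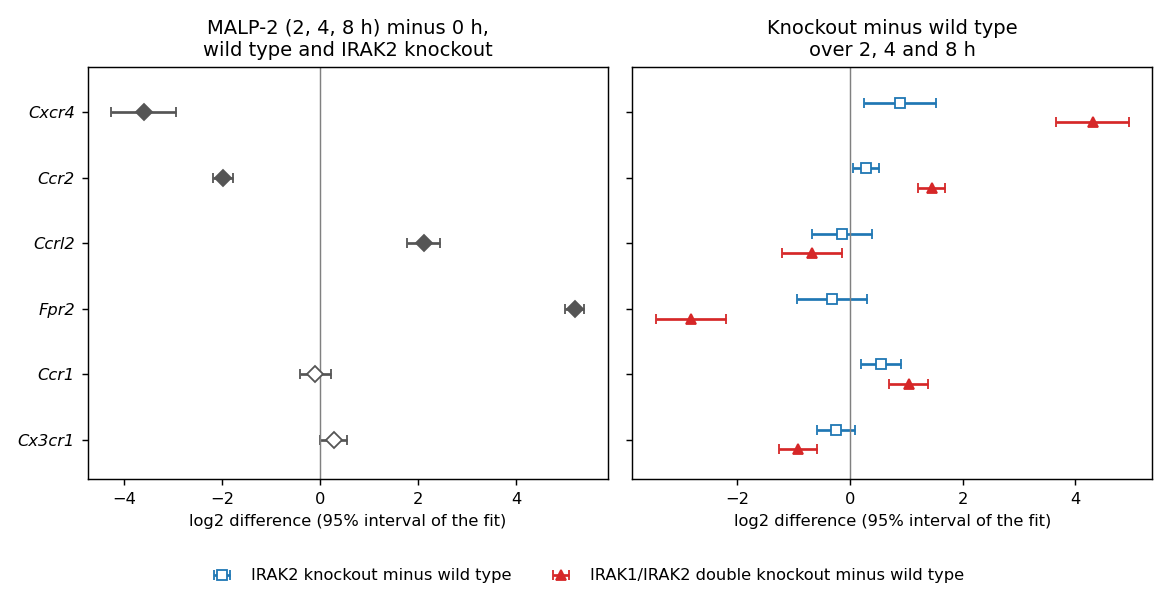
Log2 differences from the limma fits (horizontal axes) with 95% intervals for the 6 receptors: left, stimulated minus 0 h over wild type and IRAK2 knockout; right, each knockout minus wild type over 2, 4 and 8 h; filled symbols have an adjusted p under 0.05. Cxcr4 lies at -3.60 on the left and, for double knockout, at 4.31 on the right; Fpr2 lies at 5.19 and -2.82.

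Genotypes were compared over the 9 stimulated arrays, with time as a term in the fit. Here the p-value weighs a difference against how constant it was over times, not against the spread between mice. All genotypes share a common estimate of the spread, so each comparison also carries the spread of the genotype not compared. In double knockout against wild type all 6 receptors were called, 3 higher and 3 lower, where 41.1% of 10853 genes were called, 23.7% higher and 17.3% lower. Those higher were the receptors that had fallen and Ccr1, and those lower were the induced receptors and Cx3cr1. Cxcr4 was higher by 4.31 (SE 0.28, 19.8-fold, adjusted p = 3.07e-05), Ccr2 by 1.45 (SE 0.10, 2.73-fold, adjusted p = 4.25e-05) and Ccr1 by 1.04 (SE 0.15, 2.06-fold, adjusted p = 0.0011). Fpr2 differed by -2.82 (SE 0.27, 7.08-fold lower, adjusted p = 0.000181) and Cx3cr1 by -0.91 (SE 0.15, 1.89-fold lower, adjusted p = 0.00166). Ccrl2 was close to the threshold at -0.67 (SE 0.23, 1.59-fold lower, adjusted p = 0.049) and lost its call without the 2 h arrays or without the 8 h arrays, with differences of -0.81 and -0.23, and also with the mean of all probesets, with no floor, with only these 2 genotypes and with 12 arrays. With 12 arrays, which adds the unstimulated ones, Ccr1 lost its call too (adjusted p = 0.332). Stimulated wild-type Ccr2 and stimulated double-knockout Cx3cr1 lie at or near the floor, so the sizes of these 2 differences are lower limits.

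The difference between the knockouts shows what the loss of IRAK1 went with in cells already lacking IRAK2. Here 5 of 6 receptors were called, where 38.8% of genes were, 22.1% higher and 16.7% lower. Cxcr4 was higher in double knockout by 3.42 (SE 0.28, 10.7-fold, adjusted p = 9.94e-05) and Ccr2 by 1.16 (SE 0.10, 2.24-fold, adjusted p = 0.000133). With 12 arrays the Cxcr4 difference was 2.50 (adjusted p = 0.0956). Fpr2 differed by -2.51 (SE 0.27, 5.69-fold lower, adjusted p = 0.000348), and Cx3cr1 by -0.66 (SE 0.15, adjusted p = 0.00813), a call lost with the mean of all probesets, with 12 arrays and without the 4 h arrays. Ccr1 was higher by 0.49 (SE 0.15, adjusted p = 0.0337), which was lost with 12 arrays and when any 1 of the 3 times was left out. Ccrl2 was not called, at -0.52 (95% interval -1.06 to 0.01, adjusted p = 0.109).

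Loss of IRAK2 alone gave no call among the 6 receptors, where 0.765% of 10853 genes were called by limma, 0.415% higher and 0.35% lower, and 13.6% had an unadjusted p under 0.05. Cxcr4, Ccr1 and Ccr2, 3 of the 6, had an unadjusted p under 0.05. Cxcr4 had the largest difference, 0.89 above wild type (95% interval 0.25 to 1.53, adjusted p = 0.224), and it alone of the 6 was at least 2-fold above wild type on a single pair of arrays, by 1.54 at 8 h, as 0.686% of measured genes were. In a limma fit with only these 2 genotypes it passed (adjusted p = 0.0435), where 295 genes were called higher and 258 lower. The main fit called 45 and 38. The Cxcr4 gap to wild type read -0.29, 0.34, 0.79 and 1.54 at 0, 2, 4 and 8 h. As a difference in slope this was 0.60 per doubling of time (SE 0.16, adjusted p = 0.961), a fit in which 0.00921% of genes were called and 4.95% had an unadjusted p under 0.05. The limma interval for Ccr2 was 0.05 to 0.52 around 0.29 (adjusted p = 0.281). Its stimulated values lie near the floor in both genotypes, so this interval sets no upper bound. That for Fpr2 was -0.94 to 0.31 around -0.32 (adjusted p = 0.659). These intervals take times as repeats and do not cover the spread between mice.

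The log2 change in each knockout was set against that in wild type as a share, a description with no test. In IRAK2 knockout cells Cxcr4 kept 86.2%, 73.5% and 53.2% of its fall at 2, 4 and 8 h, whereas Fpr2 kept 96.1%, 97.5% and 97.3% of its rise. Ccr2, which also fell, kept 107%, 106% and 112%, but its falls end near the floor, so these shares do not show whether its full response was kept. Ccrl2 kept 119%, 132% and 90.7% of its rise.

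In double-knockout cells, against the substitute baseline, Cxcr4 kept none of its fall: its shares were -1.38%, -14.1% and -3.31%, negative because it lay slightly above the baseline. Ccr2 kept 27.8%, 35.2% and 43.1%, and Fpr2 57.9%, 46.9% and 41.2%. Ccrl2 kept 93% and 107% at 2 and 4 h and 27.8% at 8 h. By this measure Cxcr4 lay above the baseline at all 3 times, while the early rise of Ccrl2 was close in size to that of wild type. The Cxcr4 values at 2 and 8 h, 11.66 and 11.73, lay between the 2 arrays averaged in the baseline, 11.45 and 11.74, so they set no direction.

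The mean double-knockout response depended on the baseline. Against the array labelled unstimulated double knockout, Cxcr4 differed by 0.67, Ccr2 by -1.99, Ccrl2 by 2.58 and Fpr2 by 4.19, and against the substitute baseline by 0.26, -0.68, 1.52 and 2.53. Fpr2 and Ccrl2 lay above and Ccr2 below either baseline. Between 1 and 2 receptors were at least 2-fold above the substitute baseline at each time and 0 below, where 4.22%, 4.58% and 3.42% of measured genes were above and 5.99%, 5.77% and 3.15% below.

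Fpr2 also differed in its course over time. From 2 to 8 h it rose by 1.41 in wild type and by 1.43 in IRAK2 knockout, and differed by -0.17 in double knockout. The slope difference between double knockout and wild type was -0.79 per doubling of time (SE 0.13, adjusted p = 0.0938), where 0.138% of genes were called and 15% had an unadjusted p under 0.05. It did not pass, and over the alternatives its adjusted p ran from 0.0107, with a trended prior, to 0.104. Ccrl2 fell back from 2 to 8 h by 0.52, 1.13 and 1.68 in wild type, IRAK2 knockout and double knockout, and its double-knockout slope difference was -0.58 (adjusted p = 0.304).

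**Figure D3:**
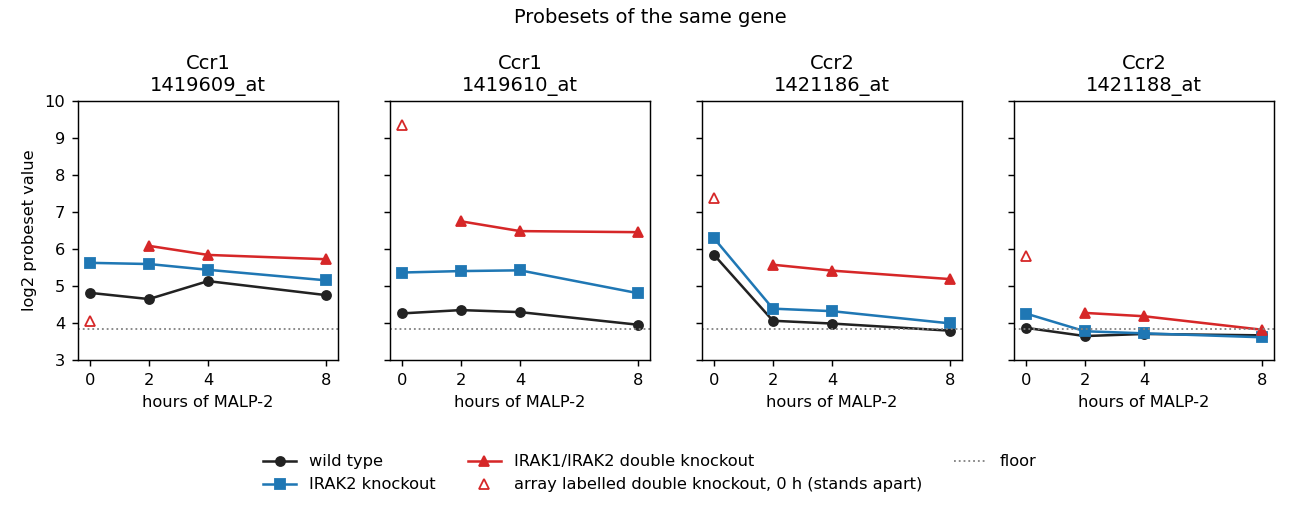
Log2 probeset value against hours of MALP-2 for both Ccr1 probesets and the main and 1 further Ccr2 probeset, 1 array per point, with the floor dotted. Double knockout is the highest genotype at 2, 4 and 8 h on all 4; the array labelled unstimulated double knockout reads 4.06 on one Ccr1 probeset and 9.37 on the other.

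Probesets of the same gene did not always tell the same size. The other Ccr1 probeset read 4.26, 4.35, 4.30 and 3.95 in wild type, 5.37, 5.41, 5.43 and 4.81 in IRAK2 knockout and 9.37, 6.75, 6.49 and 6.46 in double knockout. Its order of genotypes at 2, 4 and 8 h was that of the main probeset, with larger gaps: stimulated double knockout was 2.37 and IRAK2 knockout 1.01 above wild type, and the latter passed with this probeset (adjusted p = 0.0145). Its value on the array labelled unstimulated double knockout lay above the stimulated ones and that of the main probeset below them, so Ccr1 has no settled direction of response in double-knockout cells. For Ccr2, a further probeset ran near the floor with double knockout at 4.27, 4.18 and 3.82 against 3.65, 3.70 and 3.67 in wild type. Its mean response to MALP-2 was -0.20 in wild type and -0.55 in IRAK2 knockout, against -1.90 and -2.07 on the main probeset. At 0 h it read 3.87 and 4.26, already near the floor, and 5.82 on the array labelled unstimulated double knockout. The size of the Ccr2 fall thus rests on the main probeset. The remaining 2 Ccr2 probesets and the other Cx3cr1 probeset were under the floor on all 12 arrays.

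The ligands of these receptors were read from a list of 13, of which 11 passed the floor. After MALP-2, 6 rose and 3 fell, where 18.9% of all genes rose and 28.2% fell. Their median was 0.82 against -0.06 over all genes. Ccl5 rose by 4.55 and Ccl3 by 4.24, both ligands of CCR1, as did Ccl9 by 2.25, and the CCR2 ligand Ccl2 rose by 1.78. The 3 that fell were Cxcl12, a CXCR4 ligand, by 0.60, Rarres2, which encodes chemerin, by 0.45, and Anxa1, which encodes annexin A1, by 0.25. In double knockout against wild type 8 ligands were lower and 0 higher, where 17.3% of all genes were lower and 23.7% higher. Their median was -0.99 against 0.07 over all genes. Ccl3 differed by -4.75, Ccl2 by -2.68, Ccl5 by -2.06 and Ccl7, a further CCR2 ligand, by -1.86. Stimulated double-knockout Ccl7 lay under the floor, so the size of its difference is a lower limit. In these arrays Ccr2 was thus higher where its ligands Ccl2 and Ccl7 were lower, and Ccr1 was higher where Ccl3 and Ccl5 were lower. Cxcl12 was not called at 0.28 (limma adjusted p = 0.194), though it was called higher in double knockout against IRAK2 knockout. Mif, a further CXCR4 ligand on the list, was called lower than in wild type, at -0.99 (limma adjusted p = 0.0022). No ligand was called in IRAK2 knockout against wild type, where 0.765% of all genes were. The fit averages the times, and some gaps grew with time. At 8 h IRAK2 knockout read 5.69 against 7.85 in wild type for Ccl2 and 11.35 against 12.80 for Ccl3. At 2 h they read 7.51 against 7.12 and 12.47 against 12.46. Ccl7 read 3.78, under the floor, against 5.71 at 8 h. Mif, Ccl6, Ccl9 and Anxa1 read higher in IRAK2 knockout at 8 h. These single-array gaps carry no test.

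Other chemoattractant receptors were mostly under the floor: of 31 listed, 24 had a named probeset and 9 were tested for the MALP-2 response. Of these, 3 rose and 3 fell, with a median of 0.08, where 18.9% of all genes rose and 28.2% fell. Cmklr1, the signalling chemerin receptor, rose by 1.61, and Cxcr3 fell by 1.16. Stimulated Cxcr3 values lay under or near the floor, so the size of its fall is a lower limit. In double knockout against wild type 8 were tested, with a median of -0.01. Of these, 1 was higher and 2 were lower, where 23.7% of all genes were higher and 17.3% lower. C5ar1, the receptor for complement C5a, differed by -1.17 and Ccr9 by -1.46. Ccr9, known from gut-homing lymphocytes, was also called in IRAK2 knockout against wild type, at -1.35 (adjusted p = 0.01), where the B-cell gene Ighm also differed by -1.35, while Cd79a, at -0.34, and Ms4a1, at -0.50, were not called. In double knockout against wild type Ighm differed by 0.32 and was not called, while Cd79a was called at -0.59. The part of lymphocytes in the Ccr9 values was not tested.

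Genes of receptor coupling and desensitisation were read from a list of 26. Of 25 tested, 10 rose and 8 fell after MALP-2, where 18.9% and 28.2% of all genes did, with a median of -0.15. Rgs2, Rgs18 and Rgs1, which encode proteins that shorten G protein signalling, fell by 4.01, 1.30 and 1.19, and the GTPase gene Rac2 rose by 1.18. In double knockout against wild type 7 were higher and 7 lower, with a median of 0.11, where 23.7% of all genes were higher and 17.3% lower. Rgs2 differed by 2.88, Rgs1 by 1.63 and Arrb1, an arrestin gene, by 1.08, and Rac2 differed by -1.95. None of the 25 was called in IRAK2 knockout against wild type, where 0.765% of all genes were. Rgs2 had the largest difference of them, at 1.20 (limma adjusted p = 0.0945). It read 5.62, 7.50 and 8.15 at 2, 4 and 8 h in IRAK2 knockout, against 4.99, 6.08 and 6.59 in wild type. The 3 lists were drawn up with earlier results of these arrays known.

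**Figure D4:**
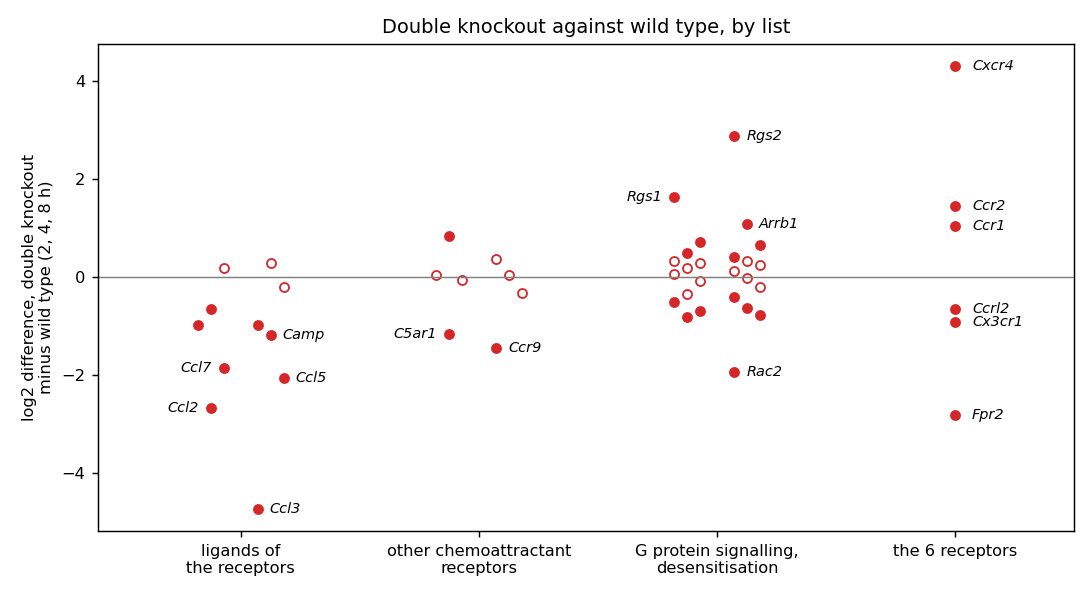
Log2 difference between double knockout and wild type over 2, 4 and 8 h (vertical axis) for the tested genes of each list and the 6 receptors; filled points have an adjusted p under 0.05, horizontal position within a list only separates points, and called genes at least 2-fold apart are named. Cxcr4 at 4.31 and Ccl3 at -4.75 mark the extremes.

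Some markers of other cells also differed between stimulated double-knockout and wild-type arrays. Of 9 neutrophil genes 8 were named, and their mean was 4.49 to 4.54 in stimulated double-knockout arrays, 4.87 to 5.28 in stimulated wild-type and 4.80 to 4.96 in IRAK2 knockout arrays. S100a8, Camp and Csf3r were called lower, 3 of the 4 tested, where 17.3% of all genes were. The listed genes Cxcr2, Elane and Mpo were under the floor on all 12 arrays. Neutrophils also express Fpr2 and Ccrl2, and their part in the lower values was not tested. Of 6 eosinophil and mast cell genes, Siglecf and Cpa3 were called higher, by 1.19 and 1.20, where 23.7% of all genes were. Prg2 and Epx were under the floor on all arrays. The mean of the 6 was 4.37 to 4.61 in stimulated double-knockout arrays against 3.86 to 3.995 in stimulated wild-type arrays. Macrophage markers averaged 9.76 to 10.07 in stimulated double-knockout arrays and 9.997 to 10.20 in stimulated wild-type arrays. In double knockout against wild type 3 of the 6 were called, where 41.1% of all genes were: Adgre1 at -0.69, Itgam at -0.78 and Mertk at 0.54. The B-cell mean was 4.50 to 4.69 against 4.70 to 5.32, and of the dendritic cell genes Zbtb46 was called at 0.79. Of 4 monocyte genes 2 were named, and their mean was 5.87 to 6.40 against 6.01 to 6.32. Plac8, near the floor, was called lower at -0.42, and Chil3, at 0.31, was not called. Some of these markers also changed with MALP-2 in wild type and IRAK2 knockout, where 47% of all genes were called. Mertk, Siglecf and Cpa3 fell by 1.98, 0.82 and 0.53, and Adgre1, Camp, Zbtb46 and S100a8 rose by 0.84, 0.82, 0.55 and 0.41. Csf3r, Itgam, Plac8 and Chil3 were not called there. Whether the marker differences come from cell numbers or from the response was not tested. The 5′ minus 3′ difference of the actin control probesets, a measure of RNA or labelling quality, was -4.68 to -3.87 in stimulated double-knockout arrays and -3.72 to -3.18 in the wild-type and IRAK2 knockout arrays. For Gapdh it was -5.90 to -4.36 against -3.84 to -3.42. The part of these values in the receptor differences was not tested.

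Across the 11 arrays the receptors could be set beside all genes that passed the floor and ranged over at least 2 log2 units, 1086 in all. The patterns most like Cxcr4 were those of Fbxo32 (r = 0.983), N4bp2l1 (r = 0.983), Insr (r = 0.970), Lratd2 (r = 0.968) and Dennd4c (r = 0.966). Fbxo32 read 8.14 at 0 h and a mean of 3.46, under the floor, after MALP-2 in wild type, and a mean of 7.36 in stimulated double knockout. Most like Fpr2 were Pilrb1 (r = 0.990), Lpcat2 (r = 0.979) and Sod2 (r = 0.977), and most like Ccrl2 were Cd40 (r = 0.978), Slfn2 (r = 0.978) and Plek (r = 0.972). Ccr2 ran most like Socs6 (r = 0.943), Mtus1 (r = 0.942) and Ncapg2 (r = 0.936). Ccr1 ran most like Gm6958 (r = 0.932), Ctr9 (r = 0.880) and Slc15a2 (r = 0.868), and Cx3cr1 most like Gpatch4 (r = 0.914), Ptpn6 (r = 0.908) and Gpr31b (r = 0.883). Among the receptors themselves, r was 0.876 between Cxcr4 and Ccr2, 0.753 between Ccrl2 and Fpr2, -0.801 between Cxcr4 and Fpr2 and -0.968 between Ccr2 and Fpr2. These coefficients describe 11 arrays that share genotypes and times.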

How the data were processed

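Per the labels' protocols, total RNA was extracted with Trizol and labelled as biotinylated cRNA with the NuGEN Ovation system. The deposited values are log2 expression values for 45101 probesets, made with RMA, per the submitters' processing notes; its version and the genome build are not given in the sources used here. RMA makes the arrays' distributions alike, so the values are relative. The number of arrays limits the precision.

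Genes were named from the platform's annotation (34945 probesets with 1 symbol, 932 with several, 9211 with none), updated through gene identifiers for 34741. Additive fits used limma 3.58.1 in R 4.3.3 on genes whose mean reached the floor of 3.83, with Benjamini-Hochberg adjustment over all of them and a threshold of 0.05; the rest used Python 3.11.15. The 9 stimulated arrays left 4 residual degrees of freedom, the 8 arrays of the MALP-2 response 3, and the slope fit (genotype by log2 time) 2. With 1 array a group, the times stand in for replicates in the genotype fits, and the 2 genotypes do so in the MALP-2 response fit. The fits were tested on simulated data.

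Members, lists and motifs were chosen with earlier results of these data known. Genes outside the receptors were named by rule. These were the genes most correlated with each receptor (5 for Cxcr4, 3 for the others), and list genes called at 2-fold or more, up to 4 per list and contrast. Ligands called lower after MALP-2, the ligands Mif and Ccl6 and marker genes were named after their values were seen. Alternatives were another probeset choice, floor, scaling, prior, set of arrays and each time left out. Promoters came from RefSeq (GRCm38.p6).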

Additional observations from a re-analysis of the deposited data

Results flagged for a closer look

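Cxcr4 stood on opposite sides of the unstimulated arrays in different genotypes: at 2, 4 and 8 h every double-knockout array lay above its own 0 h array, by a mean of 0.67, while every wild-type array and every IRAK2 knockout array lay below its own, by means of -4.20 and -3.01. Against the substitute baseline double knockout also lay above at all 3 times, by 0.063, 0.576 and 0.129, a mean of 0.26. At 2 and 8 h it lay between the 2 arrays averaged in that baseline, 11.45 and 11.74, so those times set no direction.

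Ccr1 lay above its own 0 h array in double knockout at all 3 times, by a mean of 1.82, and below it in IRAK2 knockout, by a mean of -0.23. It was 0.66 against the substitute baseline and -2.81 with the other Ccr1 probeset. Neither difference between genotypes was tested. The own 0 h array of double knockout is the one that stands apart, and 2 of its 4 Irak1 probesets go against its label.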

How the results depend on the processing

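No paired analysis was possible because each group has 1 array and the labels carry no replicate numbers. For counts of receptors and for shared most-correlated genes, most alternative values stayed within 1.5 times the original; the exceptions follow. Receptors called higher in IRAK2 knockout against wild type numbered 1 rather than 0 with the mean of all probesets, with the probeset highest over 12 arrays (Ccr1 both times) and with only those 2 genotypes (Cxcr4). Double knockout against IRAK2 knockout gave 1 higher rather than 3 with 12 arrays, and 1 lower rather than 2 with the mean of all probesets, a floor 1 unit higher, 12 arrays or without the 4 h arrays. Receptors called lower after MALP-2 numbered 1 rather than 2 with the mean of all probesets or the higher floor, under which Ccr2 was not tested, and the double-knockout slope gave 1 lower rather than 0 with a trended prior. Receptors 2-fold below 0 h at all times numbered 1 rather than 2 in wild type and in IRAK2 knockout with the mean of all probesets. In double knockout they numbered 0 with that mean, 2 with the probeset highest over 12 arrays and 0 against the substitute baseline, rather than 1, and those above numbered 1 against that baseline rather than 2.

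The sign turned in 5 values: Ccrl2 in IRAK2 knockout against wild type ran from -0.28 to 0.078 when 1 time was left out; Ccr1 between the knockouts was -0.025 with 12 arrays, against 0.49 and a call before; its double-knockout slope difference was 0.051 with the probeset highest over 12 arrays; and its double-knockout response was -0.49 with the mean of all probesets and -2.81 with that probeset. Of the genes most like each receptor, 12 arrays kept 1 for Cxcr4, 0 for Ccr1, 1 for Cx3cr1 and 0 for Ccrl2, and Spearman correlation kept 0 for Cxcr4, 0 for Ccr2, 1 for Cx3cr1, 0 for Ccrl2 and 0 for Fpr2. Using 12 arrays lowered the genes called in double knockout against wild type from 2575 to 428 higher and from 1882 to 733 lower. In IRAK2 knockout against wild type, 45 were called higher (0 to 295) and 38 lower (6 to 258). The lowest counts came from 12 arrays and the highest from the fit with only those 2 genotypes. Causes were not tested. Signal close to the floor limits Ccr2, Ccr1 and Cx3cr1.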
